A study of Mus musculus with 6 samples.

Results

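The erythroid regulators and red cell genes described here are Gata1, Klf1, Epor, Gfi1b, Alas2, Tfrc, Car1, Car2 and Slc4a1. They were listed by name as genes of red cell development, with earlier results of these data known. A gene was measured where a row of the array table carried its symbol alone. Of the 9 genes 8 were measured, each by 1 row, among 14860 genes in all. Car1, a carbonic anhydrase of red cells, had no such row and was not analysed here.

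RNA was measured in mouse bone marrow progenitor cultures on 6 arrays, 3 from miR-155 knockout (KO) cells and 3 from wild-type (WT) cells. All cultures came from female C57Bl/6 mice aged 12 weeks and treated with 5-FU, a drug that kills cycling marrow cells. All cells, the WT included, were transduced with MSCV retroviral constructs for Hoxa9 and Meis1, so no array shows marrow cells without these oncogenes. The medium for both groups was DMEM with 15% FCS, IL3, SCF and IL6, and erythropoietin is not among the factors listed. The labels do not say which animal or culture each array came from, so p-values measure only the spread between these arrays. The deleted gene had no row of its own, so the genotype was not checked on the arrays. The mature strand of the deleted microRNA is given from RefSeq (GRCm38.p6), with its seed, bases 2 to 8, in capitals.
mmu-miR-155-5p (chr16:84714143-84714165, plus strand): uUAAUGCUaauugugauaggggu

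Red cells arise from progenitors shared with megakaryocytes. Gata1 is the zinc finger factor that drives erythroid, megakaryocytic, mast cell and eosinophil differentiation, and Klf1 activates beta-globin and many genes of the red cell membrane. Gfi1b is a repressor that red cell and platelet precursors need, and Epor is the receptor through which erythropoietin keeps them alive. Alas2 makes the first haem precursor in erythroblasts, Tfrc takes up transferrin-bound iron, Car2 hydrates carbon dioxide, and Slc4a1 is band 3, the anion exchanger of the red cell membrane. Tfrc and Car2 are also used by many other cells, whereas Alas2 and Slc4a1 in marrow mark late red cell precursors.

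The GATA factors bind the letters AGATAA or TGATAA, and these were looked for on both strands in RefSeq promoter windows (GRCm38.p6), from 250 bases before to 50 after each start. Of the 8 measured genes 6 had a window in the table used. The letters occurred once in each of 4 of these genes (Gfi1b, Epor, Klf1 and Alas2) and in no window of Gata1 or Tfrc. Over the table, 18.6% of 32851 windows held them, or 21.0% of 27025 genes. The 150 bases before the start of each of the 4 genes are shown because the letters are common to 2 genes above the expression background and 2 below it, as described next. The match is in capitals.
Gfi1b (chr2:28621983-28622132, minus strand): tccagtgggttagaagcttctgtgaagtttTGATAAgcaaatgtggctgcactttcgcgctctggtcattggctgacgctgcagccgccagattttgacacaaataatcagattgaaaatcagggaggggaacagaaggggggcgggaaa
Epor (chr9:21963577-21963726, minus strand): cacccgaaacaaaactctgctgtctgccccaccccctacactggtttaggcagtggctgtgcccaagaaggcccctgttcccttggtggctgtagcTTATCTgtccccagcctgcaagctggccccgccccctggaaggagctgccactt
Klf1 (chr8:84901832-84901981, plus strand): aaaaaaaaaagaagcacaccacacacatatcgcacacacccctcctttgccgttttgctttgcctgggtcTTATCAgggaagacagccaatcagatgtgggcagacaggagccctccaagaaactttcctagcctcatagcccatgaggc
Alas2 (chrX:150547267-150547416, plus strand): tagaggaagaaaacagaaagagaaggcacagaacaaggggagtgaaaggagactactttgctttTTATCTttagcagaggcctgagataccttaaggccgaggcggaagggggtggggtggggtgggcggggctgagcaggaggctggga
The match began 120 bases before the start in Gfi1b, 54 in Epor, 80 in Klf1 and 86 in Alas2. The windows cover only the proximal promoter, so no match further away could be found. The CACC letters CCNCNCCC, of the kind that Klf1 binds, were found in the windows of Gfi1b, Epor, Alas2, Gata1 and Tfrc and not in that of Klf1, against 49.5% of all windows. Overlapping matches of these letters were counted separately. Tfrc held 5 in 1 window and 3 in the other, and Epor and Alas2 held 4 each. The E-box letters CANNTG were present for every gene with a window but Alas2, against 72.3% of all windows. A match of letters is a description and does not show that a factor binds there.

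The question of which of these genes the cultures expressed was put by setting each level against 718 olfactory receptor (Olfr) genes, which marrow cells are not thought to use. Levels are log2 values made by the authors with RMA, a method that makes the distributions of the arrays alike. The 95th percentile of the Olfr genes' mean levels was 5.98. Of the 8 genes, 6 had a mean above it, against 66.1% of all genes, so the share is near that of any gene list. What differed was which genes passed. Gfi1b, Tfrc and Car2 lay far above the background, Gata1, Epor and Slc4a1 closer to it, and Klf1 and Alas2 under it. Taking the Olfr 90th percentile gave the same count of 6 (72.8% of all genes), and requiring every array to exceed its own Olfr 95th percentile gave 5 (60.2%), without Slc4a1. At the Olfr 99th percentile, 6.99, the count was 3 (50.6%), without Gata1, Epor and Slc4a1. Levels of different genes come from different probes and were not ranked against each other. In these bulk cultures, fewer cells of a type and less RNA per cell cannot be told apart.

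**Figure D1:**
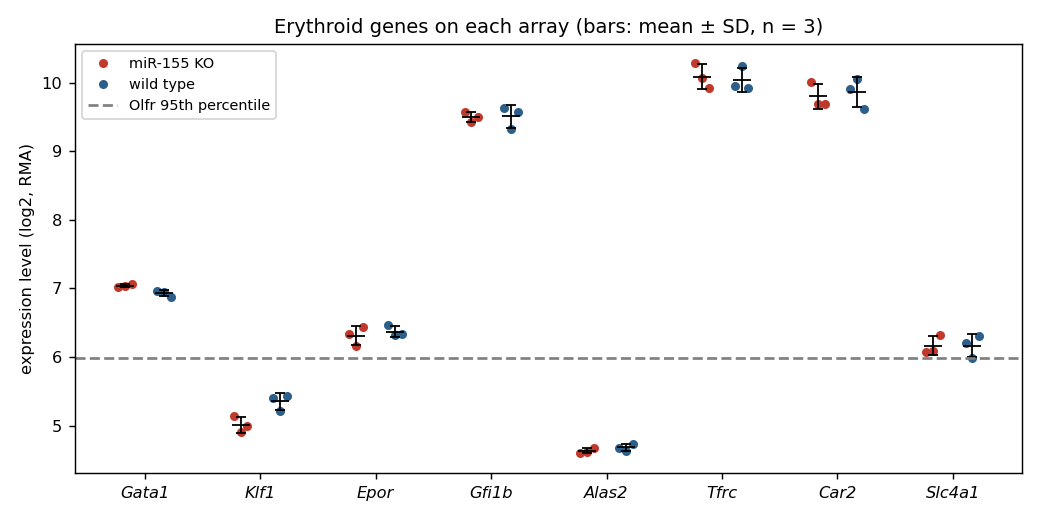
Log2 levels of the 8 measured erythroid genes on 3 miR-155 KO arrays (red, left) and 3 wild-type arrays (blue, right), with the mean and SD of each group; the dashed line is the Olfr 95th percentile of 5.98. Gfi1b, Tfrc and Car2 stand above 9 on every array, while all Klf1 and Alas2 values lie under the line.

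Among the regulators, Gfi1b was clearly expressed. Its log2 level was 9.57, 9.42 and 9.50 on the KO arrays, against 9.63, 9.32 and 9.57 on the WT arrays. The groups overlapped, and the lowest and highest values were both WT. No Olfr gene had a mean as high. The means were 9.50 ± 0.08 in KO and 9.51 ± 0.16 in WT (SD, n = 3 each), a difference of -0.01 with a 95% interval of -0.24 to 0.23 (limma, adjusted p = 0.991).

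Gata1 was above the background with little spread. It measured 7.02, 7.03 and 7.07 on the KO arrays, against 6.96, 6.94 and 6.88 on the WT arrays. Every KO array was higher than every WT array, but all 6 values lay within 0.19 of each other. Of the 718 Olfr genes, 8 had a mean at or above that of Gata1. The difference was 0.11 with an interval of -0.04 to 0.27 and did not pass the test (limma, adjusted p = 0.799).

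Klf1 was not measured above the background in either group. Its values were 5.14, 4.91 and 4.99 on the KO arrays, against 5.40, 5.22 and 5.44 on the WT arrays, and 129 Olfr genes had a mean at or above it. All KO values were under all WT values. The means were 5.01 ± 0.12 in KO and 5.35 ± 0.12 in WT (SD, n = 3 each), a difference of -0.34 with an interval of -0.56 to -0.11. At an unadjusted p of 0.00893 Klf1 did not pass after adjustment over all genes (limma, adjusted p = 0.488). At this level a difference between the arrays cannot be read as a difference in Klf1 transcript.

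Epor, the erythropoietin receptor, lay just above the background. It measured 6.33, 6.16 and 6.43 on the KO arrays, against 6.46, 6.32 and 6.33 on the WT arrays. The groups overlapped, and 20 Olfr genes had a mean at or above it. The difference was -0.06 with an interval of -0.28 to 0.16 (limma, adjusted p = 0.927). 

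The haem enzyme Alas2 was under the background on every array. It measured 4.60, 4.62 and 4.68 on the KO arrays, against 4.68, 4.63 and 4.74 on the WT arrays. The groups overlapped, and 208 Olfr genes had a mean at or above it. The difference was -0.05 with an interval of -0.21 to 0.12 (limma, adjusted p = 0.927). Alas1, the enzyme that performs the same step in other cells and in early precursors, was above the background by contrast. It measured 11.97, 12.03 and 12.12 in KO, against 11.92, 11.92 and 11.82 in WT, with no overlap and a difference of 0.15 that did not pass (limma, adjusted p = 0.755). No window of Alas1 held the GATA letters.

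The iron receptor Tfrc was among the genes far above the background. It measured 10.28, 10.06 and 9.91 on the KO arrays, against 9.95, 10.23 and 9.92 on the WT arrays. The 2 highest arrays were 1 of each genotype, and the groups overlapped. The difference was 0.05 with an interval of -0.24 to 0.34 (limma, adjusted p = 0.957).

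Car2, the cytosolic carbonic anhydrase, had a similar order of arrays. It measured 10.01, 9.69 and 9.69 on the KO arrays, against 9.90, 10.05 and 9.62 on the WT arrays. Again KO 1 and WT 2 were the highest, and the groups overlapped. The difference was -0.06 with an interval of -0.38 to 0.27, the widest of the 8 genes (limma, adjusted p = 0.951).

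Slc4a1, the band 3 exchanger, was at the edge of the background. It measured 6.08, 6.09 and 6.32 on the KO arrays, against 6.20, 5.99 and 6.31 on the WT arrays. On 5 of 6 arrays it exceeded the Olfr percentile of that array, WT 2 being the exception, and 31 Olfr genes had a mean at or above it. The difference was -0.0015 with an interval of -0.26 to 0.26 (limma, adjusted p = 0.999).

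**Figure D2:**
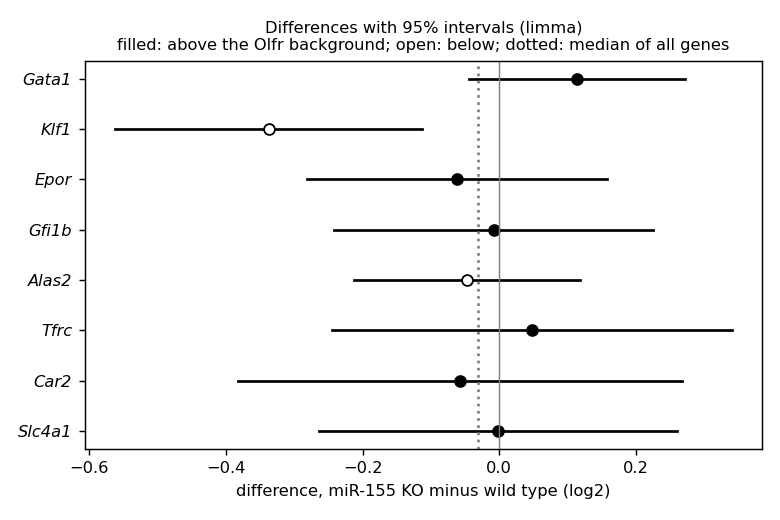
Differences in log2 level, miR-155 KO minus wild type, of the 8 measured genes (points) with 95% intervals from limma (lines); open points are genes below the Olfr background and the dotted line is the median of all genes. Only the Klf1 interval, -0.56 to -0.11, leaves out 0, and Klf1 is below the background.

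None of the 8 genes passed the limma test after adjustment, against 0.0269% of all genes (4 genes, all lower in KO). At an unadjusted p under 0.05, 1 of 8 was lower (Klf1), against 5.44% of all genes lower, and 0 of 8 were higher, against 1.78%, or 7.23% in both directions. Of all genes at that p, 24.7% were higher in KO, a share that was 47.8% with arrays centred on their median and 45.8% with further quantile normalisation. KO and WT did not overlap in 2 of 8 (Gata1 higher, Klf1 lower), against 13.3% of all genes, 2.88% higher and 10.4% lower. The median difference of the 8 genes was -0.03, against -0.03 for all genes. With 1 array left out the median of the 8 ran from -0.08 (without WT 2) to 0.02 (without KO 2), and it was 0.01 with arrays centred on their median and -0.08 with array weights, so its sign is not settled. Among the 6 genes above the background no limma interval reached beyond -0.38 or 0.34 on the log2 scale. Each interval limits the measured difference of its own gene, and no joint limit for the 6 was computed. Epor and Slc4a1 had means only 0.36 and 0.18 above the Olfr percentile. So close to the background, their intervals do not limit the difference in transcript. RMA can compress small differences.

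Tfrc and Slc4a1 split the arrays by their side of the main axis of variation of all genes, not by genotype. The first principal component of the 14860 genes held 37.2% of the variance. It set KO 1, WT 2 and KO 2, with scores of 15.7, 13.3 and 6.32, apart from WT 1, KO 3 and WT 3, with scores of -9.12, -12.2 and -14.0. Tfrc was at least 10.06 on the first 3 arrays and at most 9.95 on the other 3. Slc4a1 was at most 6.09 on the first 3 and at least 6.20 on the other 3. Car2 was highest on KO 1 and WT 2, with KO 2 close to KO 3. The component was computed from all genes, these among them, so this is a description. The share of all genes that split the arrays this way was not counted. The part of the component in any difference was not tested beyond using the side of each array, not its score, as a covariate. With that covariate the difference was -0.04 for Tfrc, 0.08 for Slc4a1 and -0.31 for Klf1, and no gene of the 8 passed.

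**Figure D3:**
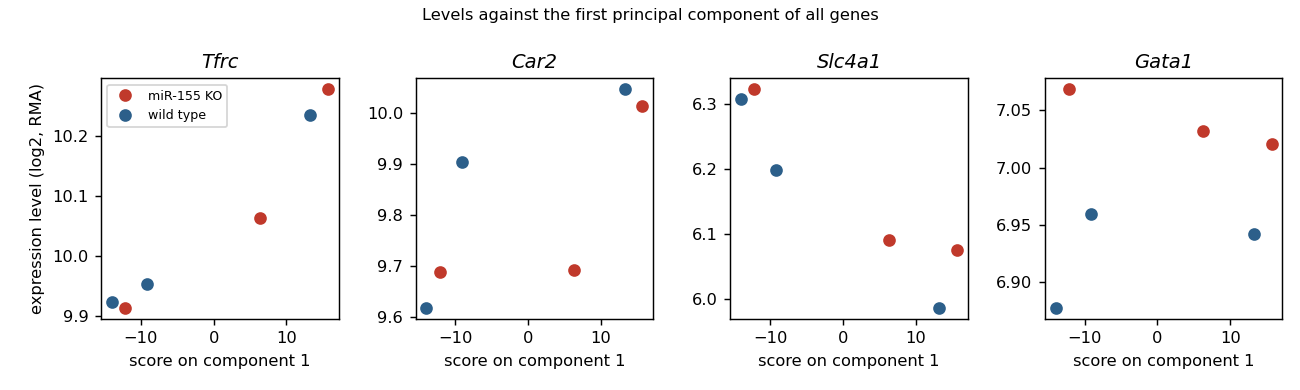
Log2 levels of Tfrc, Car2, Slc4a1 and Gata1 (each panel with its own vertical range) against the score of each array on the first principal component of all genes, with miR-155 KO in red and wild type in blue. Tfrc is above 10 on the 3 arrays with positive scores, of both genotypes, while Gata1 separates the genotypes by a small margin.

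The genes whose pattern over the 6 arrays was most like that of Gata1 were Fam174b, Scin, Trp53inp1, Cenpv and Tma16. They were taken by Pearson correlation from 1371 genes above the background with an SD of at least 0.2, and the coefficients ran from 0.951 to 0.967. With 6 arrays and so many candidates such values arise readily, so they are a description. Since Gata1 itself did not overlap between KO and WT, likeness to it selects genes that separate the groups, and their differences are not tested here. Scin, an actin-severing protein, averaged 9.44 ± 0.20 in KO and 8.53 ± 0.14 in WT (SD, n = 3 each), and Trp53inp1, a p53-induced gene, 8.52 ± 0.04 in KO and 8.06 ± 0.27 in WT (SD, n = 3 each).

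Transcription factors that work with Gata1 in early blood cells were expressed. Of 15 measured erythroid transcription factors beyond the 9 genes, 14 were above the background, against 66.1% of all genes. Sox6 was the exception. The Gata1 cofactor Zfpm1 had no row with its symbol alone and was not measured. Myb, which keeps progenitors immature, averaged 11.89 ± 0.03 in KO and 11.85 ± 0.07 in WT (SD, n = 3 each). Gata2, which precedes Gata1 in progenitors, measured 9.84, 9.91 and 10.11 in KO, against 10.32, 9.99 and 10.09 in WT. The groups overlapped, with a difference of -0.18 (limma, adjusted p = 0.818). The adaptor Ldb1 (-0.07), the factor Lyl1 (-0.12), the corepressor Cbfa2t3 (-0.13) and the globin repressor Bcl11a (0.15) did not pass either. The median difference of the 15 was -0.07 (-0.12 to -0.04 with 1 array left out), with 0 passing in each direction. KO and WT did not overlap in 1 of the 15 (Lmo2, lower), against 10.4% of all genes lower.

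Of 12 globin and globin chaperone genes 3 were measured, none of them an adult globin. Of these, 1 was above the background, against 66.1% of all genes. Hba-x, the embryonic zeta-like chain, lay at 6.50 ± 0.15 in KO and 6.46 ± 0.16 in WT (SD, n = 3 each), just above the background. Hbb-y, the embryonic epsilon-like chain, was under it at 5.05 ± 0.24 in KO and 5.43 ± 0.12 in WT (SD, n = 3 each). Like Klf1 it had no overlap, with a difference of -0.38 (limma, adjusted p = 0.593), at a level where no transcript difference can be read. Hbq1a, a theta-like chain, averaged 2.94 ± 0.19 in KO and 3.20 ± 0.62 in WT (SD, n = 3 each) and was also under it. The median difference of the 3 was -0.26, and it ran from -0.44 to 0.08 (without WT 3) with 1 array left out.

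Of 15 measured genes of the red cell membrane 9 were above the background, against 66.1% of all genes, and 12 of the 15 had means between 4.30 and 6.47. The others were the glucose transporter Slc2a1, the sialoglycoprotein Gypc and the urea transporter Slc14a1. Slc2a1 measured 10.71, 11.02 and 10.67 in KO, against 11.12, 10.86 and 11.17 in WT, a difference of -0.25 with overlapping groups (limma, adjusted p = 0.756). Gypc (-0.10), the dematin gene Dmtn (-0.15) and ankyrin Ank1 (-0.07) did not pass. The median of the list was -0.04 (-0.08 to -0.02 with 1 array left out), and no member passed in either direction.

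**Figure D4:**
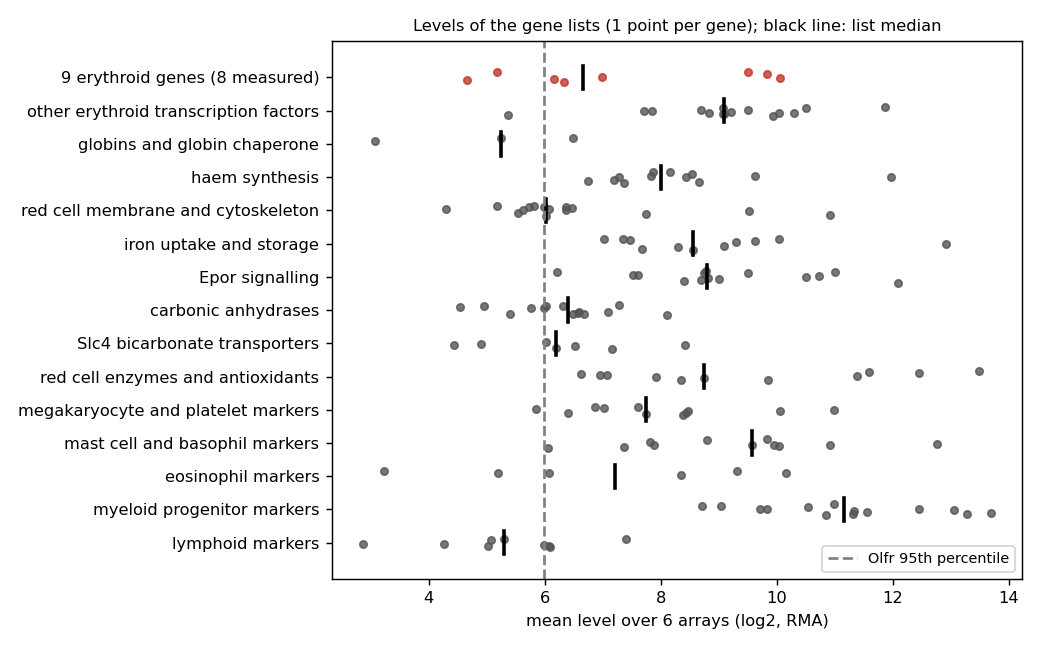
Mean log2 level over the 6 arrays of each measured gene (points) in the 9 erythroid genes and 14 further lists, with list medians (black lines) and the Olfr 95th percentile (dashed). All haem synthesis and iron genes and 14 of 15 transcription factors (all but Sox6) lie above the line, against 9 of 15 red cell membrane genes. Of all genes 66.1% lie above it.

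The shared steps of haem synthesis were expressed, with 12 of 12 measured members above the background, against 66.1% of all genes. After Alas1, the smallest p-values were those of the porphyrin transporter Abcb6 (-0.14) and of Alad (-0.13), the enzyme after Alas1. The glycine carrier Slc25a38 (-0.18) followed. The mitoferrin gene Slc25a37 averaged 9.60 ± 0.09 in KO and 9.65 ± 0.05 in WT (SD, n = 3 each), and Ppox differed by -0.09. The median was -0.07 (-0.07 to -0.04 with 1 array left out), with 0 of 12 passing. KO and WT did not overlap in 1 higher and 3 lower genes of the 12, against 2.88% of all genes higher and 10.4% lower.

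Of the lists on red cell biology, the iron genes held the smallest p-value. Tfr2, the second transferrin receptor, which partners Epor in erythroblasts and senses iron, measured 7.29, 7.32 and 7.25 on the KO arrays, against 7.58, 7.66 and 7.69 on the WT arrays. Every KO array was lower, and the gap exceeded the spread within each group. The means were 7.29 ± 0.04 in KO and 7.64 ± 0.06 in WT (SD, n = 3 each), a difference of -0.35 with an interval of -0.52 to -0.19. At an unadjusted p of 0.00132 it did not pass after adjustment (limma, adjusted p = 0.328). Tfr2 was above the background, and its difference stayed between -0.39 and -0.32 under 16 other settings, with adjusted p-values of 0.146 or more. The haem-degrading Hmox1 (-0.40), the iron exporter Slc40a1 (-0.20) and the hepcidin regulator Hfe (0.25) did not pass. The storage chain Fth1 stood at 12.96 ± 0.06 in KO and 12.89 ± 0.06 in WT (SD, n = 3 each), Trf differed by -0.13 and Exoc6 by 0.08. Of 11 members, all above the background (against 66.1% of all genes), 0 passed, and the median was 0.03 (-0.0043 to 0.04 with 1 array left out). KO and WT did not overlap in 2 of the 11, both lower (Tfr2 and Trf), against 10.4% of all genes lower.

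The signalling chain under Epor was expressed although Epor itself was near the background. Most of these genes also serve other cytokine receptors, among them that of IL3. All 14 measured members were above the background, against 66.1% of all genes, and none passed the test. The lowest, Erfe, had a mean of 6.22 and so was near the background as well. Stat5b (-0.19) and the STAT5-induced inhibitor Cish (-0.24) were lower on every KO array than on every WT array, and the adaptor Gab1 (0.22) was higher on every one. Their adjusted p-values were 0.697, 0.709 and 0.717 (limma). No other gene of the 14 separated the groups, against 10.4% of all genes lower and 2.88% higher. Counts this small in a short list are not a result about the list. Stat5a differed by -0.15, Pim1 by 0.02 and Socs2 by 0.05, and the median was -0.08 (-0.10 to -0.04 with 1 array left out).

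Among the other carbonic anhydrases 10 of 14 were above the background, against 66.1% of all genes, and 0 passed. Car5a was counted among the 10 at a mean of 5.98, at the edge of the background. Car9, a membrane enzyme induced by low oxygen, averaged 7.82 ± 0.25 in KO and 8.39 ± 0.07 in WT (SD, n = 3 each), a difference of -0.57 with no overlap (limma, adjusted p = 0.403). Car8, which lacks enzyme activity, differed by 0.26, also with no overlap (limma, adjusted p = 0.622). Car3 (-0.11), Car5a (-0.15), Car4 (-0.28) and Car13 (0.07) did not pass. Car3 was also lower on every KO array. KO and WT thus did not overlap in 1 higher and 2 lower genes of the 14, against 2.88% of all genes higher and 10.4% lower. Car13, Car1, Car3 and Car2 follow each other on chromosome 3 in RefSeq. The mean level of Car13, 7.08, was above the background. That of Car3, 6.02, was at its edge, with 5.97 in KO, under the Olfr percentile of 5.98, and 6.08 in WT. The list median was -0.04 and ran from -0.09 to 0.01 with 1 array left out. Above the median level only Car4, Car9 and Car13 remained, and their median of -0.28 is the Car4 difference.

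The list of band 3 relatives also holds Slc4a1ap, which is not an Slc4 transporter and has the highest level of the list (8.42). Of its 7 measured genes, Slc4a1ap included, 5 were above the background, against 66.1% of all genes. Slc4a9 was at the edge of the background (6.01). Slc4a2, the exchanger of most other cells, averaged 7.05 ± 0.11 in KO and 7.26 ± 0.05 in WT (SD, n = 3 each), a difference of -0.20 with no overlap (limma, adjusted p = 0.658). Slc4a9 and Slc4a3 differed by -0.11 each, and Slc4a8 and Slc4a1ap, which encodes an adaptor of band 3, by 0.01 each. The median was -0.06, and -0.14 without WT 2, -0.02 without WT 3, -0.02 with arrays centred on their median, -0.10 with array weights and -0.11 among genes above the background. Red cell enzymes and antioxidants, most of them used by all cells, were above the background in 11 of 11, against 66.1% of all genes. Hk1 (-0.18) had the smallest p-value, with no overlap (limma, adjusted p = 0.674). Aldoa (-0.13), Cyb5r3 (-0.12), the red cell pyruvate kinase Pklr (-0.12), Gpx1 (-0.08) and Cat (0.05) did not pass. The median was -0.08, but 0.03 without KO 3 and -0.01 with further quantile normalisation or among genes above the median level. No gene of these lists passed after adjustment. At an unadjusted p under 0.05 (limma), the erythroid factor, haem synthesis, membrane and Epor signalling lists had 0 genes. The globin, iron, Slc4 and enzyme lists had 1 lower gene each (Hbb-y, Tfr2, Slc4a2 and Hk1), and the carbonic anhydrases had 1 higher (Car8) and 1 lower (Car9). Against 5.44% of all genes lower and 1.78% higher, counts of 1 in lists this short are not a result about the lists.

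**Figure D5:**
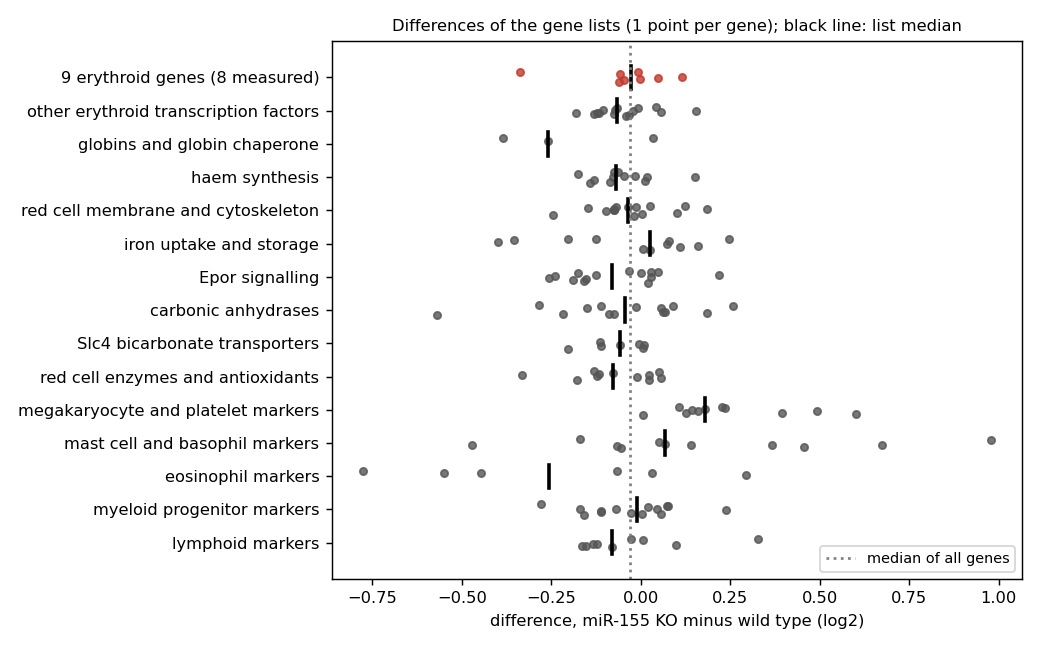
Differences in log2 level, miR-155 KO minus wild type, of each measured gene (points) by list, with list medians (black lines) and the median of all genes (dotted). The erythroid lists centre close to the dotted line, with the 3 globins at -0.26, and the megakaryocyte list has all 11 genes above 0, against 5791 of 14860 genes in all.

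Gata1 and Gfi1b are also used by other cell types, whose markers were read on the same arrays. Of the myeloid progenitor markers, which bear on the labelled cell type, 14 of 14 were above the background, against 66.1% of all genes. Elane, Prtn3 and Mpo were above 12 on every array. The median difference of these markers was -0.01 (-0.09 to 0.02 with 1 array left out). Mpo (0.24), Cd34 (-0.16), Kit (-0.17) and Itgam (-0.28) did not pass. Lymphoid markers were above the background in 4 of 9, against 66.1% of all genes, with Cd79a at its edge (5.99). Their median was -0.08 (-0.14 to -0.02 with 1 array left out). Cd79b (0.33), Pax5 (-0.08), Cd3e (-0.15) and Cd79a (0.10) did not pass.

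Megakaryocyte and platelet markers, which share Gata1 and Gfi1b with red cells, had 10 of 11 members above the background, against 66.1% of all genes. Their median difference was 0.18 (0.11 to 0.21 with 1 array left out). Their mean level ran from 8.05 to 8.19 on the KO arrays, against 7.75 to 7.95 on the WT arrays. KO and WT did not overlap in 6 of 11, all higher, against 2.88% of all genes higher and 13.3% in either direction. At an unadjusted p under 0.05, 2 were higher (limma, against 1.78% of all genes), and none passed after adjustment. Selp, P-selectin, measured 7.96, 8.16 and 8.02 in KO, against 7.48, 7.42 and 7.44 in WT (limma, adjusted p = 0.11). Ppbp (0.49), Gp9 (0.23), Itgb3 (0.16) and Fli1 (0.14) did not pass. Over the 8 erythroid genes the same mean ran from 7.25 to 7.38 in KO, against 7.34 to 7.40 in WT. It was also lower on every KO array, by a very small margin, for haem synthesis (8.248 to 8.309, against 8.315 to 8.351 in WT). The same held for the Slc4 list (6.192 to 6.212 in KO, against 6.216 to 6.317 in WT). These margins are small beside the median difference of all genes, -0.03, so they are not a result about these lists.

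Mast cell and basophil markers, another Gata1 and Gata2 lineage, were above the background in 11 of 11, against 66.1% of all genes. Their mean level ran from 9.14 to 9.50 in KO, against 9.02 to 9.21 in WT, with a median difference of 0.07 (0.05 to 0.10 with 1 array left out). Cpa3, Mcpt8 and Hdc had mean levels above 10, and Fcer1a (0.98), Gzmb (0.67), Ms4a2 (0.37) and Prss34 (-0.47) did not pass. At an unadjusted p under 0.05 (limma), 2 of 11 were higher and 1 lower, against 1.78% and 5.44% of all genes. KO and WT did not overlap in 3 of 11, all higher, against 2.88% of all genes higher. Eosinophil markers were above the background in 4 of 6, against 66.1% of all genes. Their mean level ran from 6.68 to 7.19 in KO, against 6.93 to 7.36 in WT. Their median was -0.26, with -0.41 to -0.16 when 1 array was left out and -0.50 among those above the Olfr 95th percentile. Above the median level only Epx, Prg2 and Siglecf remained, and their median of -0.55 is the Prg2 difference. Epx (-0.78), Prg2 (-0.55), Prg3 (-0.45) and Siglecf (0.29) did not pass. Of the 6, 1 was higher and 2 were lower at an unadjusted p under 0.05 (limma), against the same shares of all genes. Only Siglecf, higher in KO, did not overlap. The part of these cell types in the Gata1 and Gfi1b levels was not tested.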

How the data were processed

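Biotin-labelled RNA was read on whole-transcript arrays. The deposited log2 levels were made by the authors with RMA in Affymetrix Expression Console, as the submitters' processing notes name them. Version, summary level and settings are not stated there. The values themselves show the log2 scale. With 3 arrays a group, the typical (median) standard error was 0.0973.

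The platform annotation gave 14996 of 23332 rows a single symbol, 1019 several and 7317 none here. Each of 14860 genes was represented by its row of highest mean. The genotypes were compared in R 4.3.3 with limma 3.58.1 (lmFit, then eBayes with neither trend nor robust option), without filtering on level. Tests were two-sided and Benjamini-Hochberg adjusted over all genes, at a threshold of 0.05. With 3 against 3 arrays, exact permutation cannot go below 0.1. The fit was checked on simulated data. Lists were described by counts and medians only.

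The erythroid genes, lists and rules were chosen with earlier results of these data known. From each list the text names genes past the threshold, up to 4 above the background with the smallest p, and 3 of highest level. Genes named only as an exception, as lowest, as unmeasured or for no overlap are additional. Alternatives covered scaling, array weights, filters, row choice, variance models, the side of the first component as a covariate and leaving out each array. Proteins were not used here. Plots were made in Python 3.11.15 with matplotlib 3.10.9.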

Additional observations from a re-analysis of the deposited data

How the results depend on the processing

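No setting brought an erythroid gene past the adjusted threshold, the smallest adjusted p being 0.17 (limma, Klf1 with array weights). Klf1 stayed lower in KO, between -0.41 and -0.28, at an unadjusted p of 0.00152 to 0.037 wherever it was tested. The filters at the median level and at the Olfr 95th percentile removed it, which left 0 erythroid genes at that p in place of 1. Gata1 stayed higher, between 0.09 and 0.15. Differences near 0 changed sign. Gfi1b was 0.0264 with arrays centred on their median, 0.0179 with quantile normalisation and 0.0375 with the side of the component as covariate. Slc4a1 was 0.033, 0.0418 and 0.0828 under the same settings, and Tfrc was -0.0445 with the covariate. With array weights Hba-x was -0.0304 and Cd79a -0.0542. With 1 array left out, differences ran from -0.125 to 0.012 for Epor, -0.0997 to 0.0525 for Gfi1b, -0.0487 to 0.146 for Tfrc, -0.177 to 0.0377 for Car2 and -0.0903 to 0.0702 for Slc4a1. The same ranges were -0.04995 to 0.113 for Hba-x, -0.016 to 0.0226 for Slc4a8 and -0.0841 to 0.232 for Cd79a. The cause of these changes was not tested. At the Olfr 99th percentile 3 of the 8 genes were above the background in place of 6.

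Over all genes, 4 passed after adjustment, against 16 with array weights, 14 and 13 with the filters at the median level and at the Olfr 95th percentile, 9 with a variance trend, and 0 to 1 with 1 array left out. The count at an unadjusted p under 0.05 was 2080 with array weights, against 1074. Selp passed with array weights (adjusted p = 0.0397) and both filters (0.031 and 0.0388), and Fcer1a with the covariate (0.0453). No paired analysis was possible because all 3 wild-type titles carry the same numeral. A signal under the Olfr background limits what can be read for Klf1, Alas2 and Hbb-y.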
